A study of Mus musculus with 6 samples.

Results

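The 10 genes described here are core members of the Notch pathway: the receptors *Notch1*, *Notch2*, and *Notch3*, the ligands *Jag1*, *Jag2*, and *Dll1*, and the effectors *Hes1*, *Hes6*, *Hey1*, and *Heyl*. They were chosen by gene name from the 55421 genes of the deposited count table, and all 10 were found there. The cells were C2C12, a mouse myoblast line that fuses into myotubes when serum is withdrawn. Normal cells carried a *GFP* plasmid with 5 CTG repeats (C2C12-CUG5, the normal group), and cells modeling myotonic dystrophy type 1 carried the same reporter with 200 CTG repeats (C2C12-CUG200, the DM1 group). Both groups were stably transfected under G418 selection, so that the plasmid, the drug, and its selection are common to both, and the only labelled difference is the length of the repeat, which lies outside its native gene *DMPK*. The total RNA of 3 libraries of each group was sequenced at differentiation day 4. The study describes the libraries as biological replicates. Whether these stem from independent cultures or transfections, and whether each line is a single clone, is not stated. The p-values therefore measure the spread among these libraries only.

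Notch receptors are cleaved when a Jagged or Delta ligand on a neighboring cell binds them, and the freed intracellular domain enters the nucleus and joins the DNA-binding protein RBPJ. The best-known targets of this complex are the *Hes* and *Hey* genes, which encode basic helix-loop-helix repressors. In skeletal muscle the pathway is known for keeping satellite cells and myoblasts undifferentiated, and it opposes the myogenic factor MyoD. The comparison below asks how the RNA of these genes differed between DM1 and normal cells at the time when myotubes begin to form. In bulk RNA, fewer cells of a type and less RNA per cell cannot be told apart.

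The promoter windows of the members are shown because several of the genes moved in the same direction, and because RBPJ and the Hes and Hey proteins bind short DNA motifs. Promoter windows (the 250 bases before the RefSeq start, GRCm38.p6) were matched for 7 of the 10 members, with *Hes1*, *Hey1*, and *Heyl* not among them. Both strands were searched for the RBPJ core TGGGAA, the longer RBPJ site GTGGGAA (which contains the core), the N-box CACNAG, and the E-box CANNTG. The windows of 2 members that were lower in the DM1 group, *Notch1* (chr2:26503823-26504072, minus strand) and *Hes6* (chr1:91413223-91413472, minus strand), and of 1 that did not pass the test, *Notch2* (chr3:98013288-98013537, plus strand), are written 5′ to 3′ along the gene, with N-box and E-box matches in capitals.
Notch1: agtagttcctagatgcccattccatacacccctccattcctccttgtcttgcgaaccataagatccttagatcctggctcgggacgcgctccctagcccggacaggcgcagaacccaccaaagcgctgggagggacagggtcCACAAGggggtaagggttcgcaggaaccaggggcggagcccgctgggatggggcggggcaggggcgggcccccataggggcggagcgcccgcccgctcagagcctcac
Hes6: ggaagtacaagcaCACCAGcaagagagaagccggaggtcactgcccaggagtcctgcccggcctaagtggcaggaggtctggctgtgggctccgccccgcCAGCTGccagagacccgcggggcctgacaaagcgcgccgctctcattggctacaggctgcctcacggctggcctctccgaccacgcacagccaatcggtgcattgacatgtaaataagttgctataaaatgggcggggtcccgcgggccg
Notch2: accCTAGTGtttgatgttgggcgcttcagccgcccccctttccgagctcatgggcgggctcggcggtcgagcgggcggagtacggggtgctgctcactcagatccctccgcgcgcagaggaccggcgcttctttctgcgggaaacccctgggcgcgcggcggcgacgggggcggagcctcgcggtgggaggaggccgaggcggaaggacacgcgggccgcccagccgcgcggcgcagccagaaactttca
In GENCODE M21 the windows of *Notch1* and *Hes6* lie within introns of longer transcripts of the same genes, and that of *Notch2* lies before the gene except for its last bases. Of the other windows counted below, those of *Jag2* and *Dll1* lie within the span of their genes. That of *Jag1* lies partly within its gene, and that of *Notch3* lies before its gene. The window of *Notch1* held 1 N-box and no E-box, that of *Hes6* held 1 of each, and that of *Notch2* held 1 N-box. None of the windows of the 7 members held TGGGAA, which was present in 21.6% of 32851 promoter windows of the same length, nor GTGGGAA, which was present in 5.42%. Counting the window nearest the start of each of the 7 members, 4 held an N-box (*Notch1*, *Notch2*, *Notch3*, and *Hes6*), against 36.7% of all windows, and 3 held an E-box (*Jag1*, *Dll1*, and *Hes6*), against 66.2%. These matches are descriptions of the letters in these windows only.

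Between 61707889 and 80957325 counts were assigned to genes per library, and the 10 genes took 0.0520% to 0.0721% of them. The smallest count of any member in any library was 352. A count stood for about 75 aligned bases, and the read length is not given, so counts cannot be taken as single reads. Levels are given below as CPM (counts scaled to a common library size, here after TMM scaling). Levels of the 10 genes are compared with each other as TPM, which is scaled for gene length, and, as an alternative, as the deposited coverage per base. The myoblast markers *Myod1*, *Des*, *Cdh15*, and *Myog* were all expressed, with a summed level of 1519 to 1629 TPM in the normal group and 870 to 1213 TPM in the DM1 group. All 4 were lower in the DM1 group by edgeR, although single left-out libraries ended the call of *Des* (without CUG5 replicate 3, adjusted p = 0.121, and 3 other libraries) and of *Myod1* (without CUG5 replicate 3, adjusted p = 0.0685, and without CUG200 replicate 2).

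All 10 genes had enough counts to be tested. In the DM1 group, 6 were lower (*Notch1*, *Dll1*, *Hes1*, *Hes6*, *Hey1*, and *Heyl*), against 8.73% of all 19005 tested genes, by edgeR's quasi-likelihood test at an adjusted p-value under 0.05. None of the 10 was higher, against 7.13% of all tested genes. None was higher at an unadjusted p-value under 0.05 either, against 14.7% of all tested genes. DESeq2 also called none higher, against 10.9% of the 16182 genes to which it gave an adjusted p-value. By role, 1 of 3 receptors, 1 of 3 ligands, and 4 of 4 effectors were lower. With the additional cutoff of an absolute log2 fold change over 1, 2 genes remained, *Hey1* and *Heyl*, against 0.816% of all tested genes lower and 1.36% higher by that rule. The groups did not overlap for 7 genes, all lower in the DM1 group, against 19.3% of all tested genes lower and 37.2% in either direction without overlap. Without single libraries, 5 to 8 of the 10 genes were lower. Over all tested genes, 1660 were lower, and this number was 668, 774, and 485 without CUG5 replicates 1, 2, and 3 and 568 without CUG200 replicate 2. The median log2 fold change of the 10 genes was -0.55, and that of all tested genes was 0.02.

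**Figure D1:**
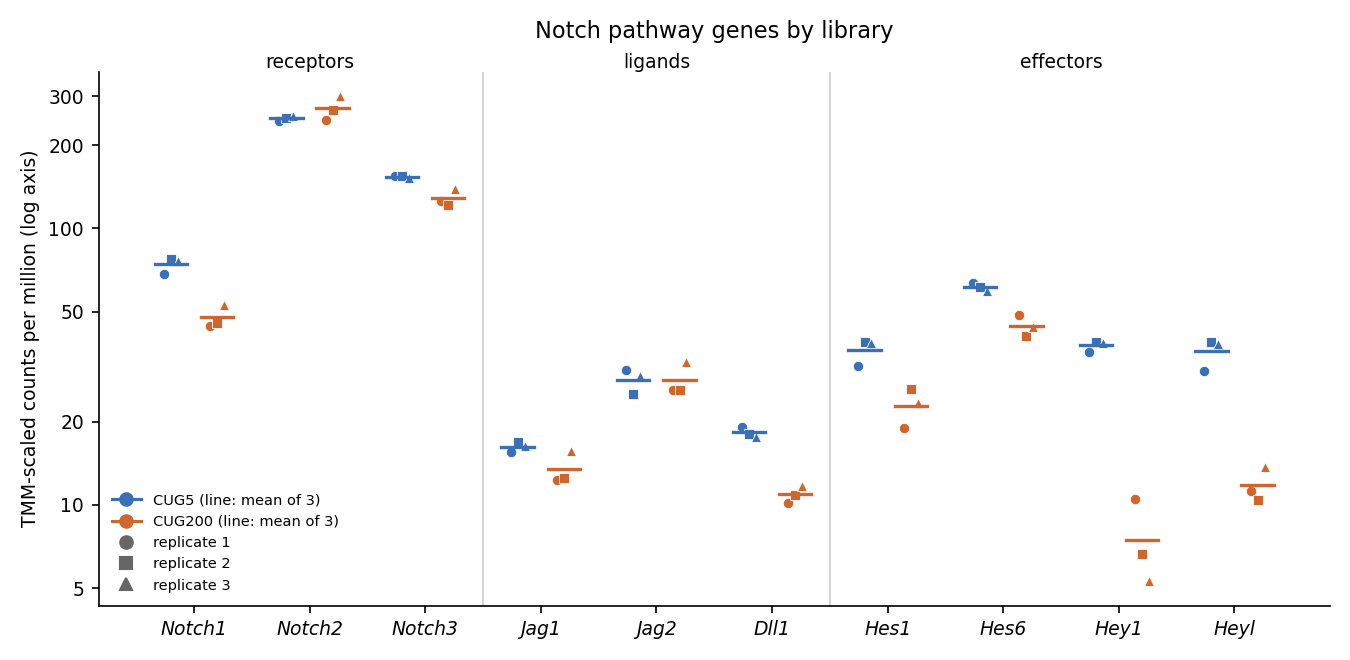
Level of each of the 10 genes in each library, in TMM-scaled CPM on a log axis, with CUG5 in blue, CUG200 in orange, the 3 replicates as different symbols, and a line at the mean of each group. The groups lie apart for 7 genes, with the widest gaps for *Hey1* and *Heyl*, and overlap for *Notch2*, *Jag1*, and *Jag2*.

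*Notch1* was the only receptor that was lower in the DM1 group by the test. *Notch1* (ENSMUSG00000026923, GRCm38 chromosome 2, 26457903 to 26516663, minus strand) encodes a receptor that maintains muscle progenitors. Its level was 68.6, 77.7, and 76.3 CPM in the normal group and 44.4, 45.6, and 53.0 CPM in the DM1 group. Every DM1 library was below every normal library, with means of 74.2 ± 4.92 and 47.6 ± 4.65 CPM (SD, n = 3 each). The DM1 group was at 64.2% of the normal group, a log2 fold change of -0.64 (SE 0.0967, edgeR adjusted p = 0.00506). *Notch1* was also called lower in 17 of 17 alternative analyses.

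*Notch2* (ENSMUSG00000027878, chromosome 3, 98013527 to 98150361, plus strand), a receptor that is also expressed in muscle progenitors, had levels of 244, 251, and 256 CPM in the normal group and 246, 269, and 301 CPM in the DM1 group. The lowest DM1 library lay within the range of the normal group, and the other two lay above it. The log2 fold change was 0.12 (SE 0.0938, edgeR adjusted p = 0.437), which is -0.01 on the TPM scale. *Notch3* (ENSMUSG00000038146, chromosome 17, 32120820 to 32166852, minus strand), a receptor known from vascular smooth muscle and from quiescent satellite cells, had levels of 155, 155, and 151 CPM in the normal group and 125, 122, and 138 CPM in the DM1 group. The groups did not overlap, yet the log2 fold change of -0.26 missed the threshold (SE 0.0816, edgeR adjusted p = 0.0645). DESeq2 (adjusted p = 0.0473) and edgeR without CUG200 replicate 3 (adjusted p = 0.0171) called *Notch3* lower. *Gm42820*, which overlaps *Notch2* on the same strand, had at most 1.81% of the counts of *Notch2*, and the antisense neighbors of *Notch1* and *Notch3* had at most 2.25% and 0.885% of theirs. *Dll1* is also overlapped by an antisense gene, *A930024N18Rik*, whose counts were not analysed here, and the strand setting of the counting is not given in the sources used here.

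Among the ligands, *Dll1* was lower in the DM1 group. *Dll1* (ENSMUSG00000014773, chromosome 17, 15367354 to 15376872, minus strand) encodes a Delta ligand that activates Notch in neighboring progenitors. Its level was 19.2, 18.1, and 17.7 CPM in the normal group and 10.2, 10.9, and 11.7 CPM in the DM1 group. The spread in each group was narrow and the groups lay far apart, with means of 18.3 ± 0.767 and 10.9 ± 0.746 CPM (SD, n = 3 each). The DM1 group was at 59.7% of the normal group, a log2 fold change of -0.75 (SE 0.108, edgeR adjusted p = 0.00426), and *Dll1* was called lower in 17 of 17 alternative analyses.

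The Jagged ligands did not pass the test. *Jag1* (ENSMUSG00000027276, chromosome 2, 137081456 to 137116644, minus strand) had levels of 15.5, 16.9, and 16.3 CPM in the normal group and 12.3, 12.5, and 15.7 CPM in the DM1 group. Only DM1 replicate 3 lay within the normal range, and the log2 fold change was -0.27 (SE 0.126, edgeR adjusted p = 0.194). Without CUG200 replicate 3, it was -0.39 (adjusted p = 0.0402). *Jag2* (ENSMUSG00000002799, chromosome 12, 112907819 to 112929776, minus strand) had levels of 30.7, 25.1, and 29.3 CPM in the normal group and 26.0, 26.0, and 32.9 CPM in the DM1 group. The groups overlapped, with a log2 fold change of -0.0036 (SE 0.126, edgeR adjusted p = 0.990) that is 0.19 on the TPM scale.

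The effectors were the role in which all members were lower in the DM1 group. *Hey1* showed the largest change of the 10 genes. *Hey1* (ENSMUSG00000040289, chromosome 3, 8663359 to 8667256, minus strand) encodes a repressor that is a direct Notch target. Its counts were 3008, 2389, and 2691 in the normal group and 783, 475, and 352 in the DM1 group, which are 35.8, 38.9, and 38.5 CPM against 10.5, 6.67, and 5.29 CPM. The highest DM1 library was far below the lowest normal library, and the means were 37.7 ± 1.70 and 7.50 ± 2.72 CPM (SD, n = 3 each). *Hey1* was 5.03-fold lower in DM1 cells, a log2 fold change of -2.33 (SE 0.235, edgeR adjusted p = 0.00198). The coefficient of variation of *Hey1* in CPM was 36.2% in the DM1 group and 4.51% in the normal group, and in TPM it was 15.6% and 7.07%. The median coefficients of variation of all tested genes in CPM were 14.6% and 10.8%.

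*Heyl* (ENSMUSG00000032744, chromosome 4, 123233556 to 123249875, plus strand) encodes another Hey repressor, which is known as a Notch target in satellite cells and in vascular smooth muscle. Its counts were 2575, 2392, and 2659 in the normal group and 834, 740, and 913 in the DM1 group, which are 30.6, 39.0, and 38.1 CPM against 11.2, 10.4, and 13.7 CPM. The groups were again clearly separate, with means of 35.9 ± 4.57 and 11.8 ± 1.74 CPM (SD, n = 3 each). *Heyl* was 3.05-fold lower in the DM1 group, a log2 fold change of -1.61 (SE 0.143, edgeR adjusted p = 0.00109). By p-value, *Heyl* was at rank 30 and *Hey1* at rank 97 among all tested genes, an order that turned with DESeq2, with library totals alone, with limma on the TPM scale, and without CUG200 replicate 1. *Hey1* and *Heyl* were called lower in 17 of 17 alternative analyses.

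The Hes genes were lower by a smaller amount. *Hes1* (ENSMUSG00000022528, chromosome 16, 30064384 to 30067796, plus strand), a repressor that is the classical Notch target, had levels of 31.9, 38.7, and 38.4 CPM in the normal group and 19.0, 26.2, and 23.4 CPM in the DM1 group. All DM1 libraries were below the normal ones, at 62.9% of the normal mean, with a log2 fold change of -0.67 (SE 0.137, edgeR adjusted p = 0.0143). *Hes6* (ENSMUSG00000067071, chromosome 1, 91411483 to 91414038, minus strand) encodes a relative that antagonizes Hes1 and is known to promote differentiation, and it had levels of 63.4, 61.5, and 59.5 CPM in the normal group and 48.5, 41.0, and 43.9 CPM in the DM1 group. *Hes6* was at 72.3% of the normal mean, with separate groups and a log2 fold change of -0.47 (SE 0.0877, edgeR adjusted p = 0.0107). Both calls depended on single libraries. *Hes1* missed the threshold without CUG5 replicate 2 (adjusted p = 0.0593) or 3 (adjusted p = 0.0663), and *Hes6* missed it without CUG5 replicate 1 (adjusted p = 0.0506) or CUG200 replicate 2 (adjusted p = 0.0542).

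**Figure D2:**
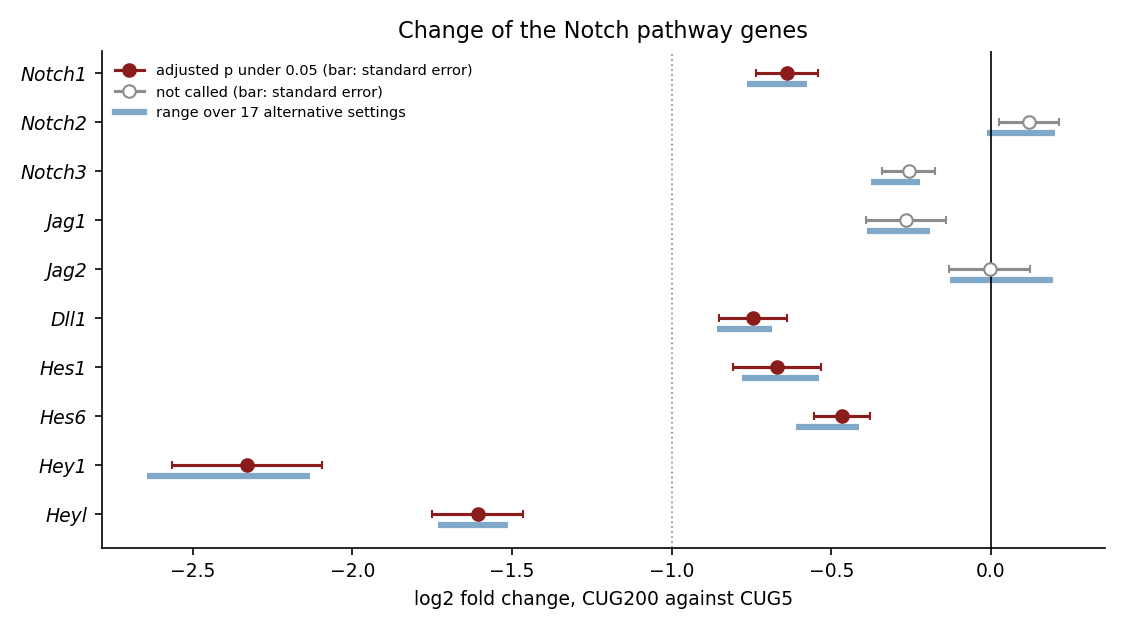
Log2 fold change of each gene, CUG200 against CUG5, with its approximate standard error (filled points: edgeR adjusted p-value under 0.05) and, below each point, a bar for the range over the 17 alternative analyses. *Hey1* and *Heyl* lie beyond the dotted line at -1, and the ranges of *Notch2* and *Jag2* cross 0.

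Within the DM1 group, all 6 receptors and ligands and *Heyl* had their highest level in replicate 3, both in CPM and in TPM, and *Hey1* had its lowest level there on both scales. *Hes1* was highest in replicate 2 and *Hes6* in replicate 1 in CPM, but in TPM both were highest in replicate 3.

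Per length, *Hes6* was the most abundant of the 10 genes in the normal group, with 72.2 ± 6.36 TPM (SD, n = 3). It was followed by *Hes1* (45.8 ± 2.37 TPM), *Notch2* (40.2 ± 1.45 TPM), *Notch3* (32.8 ± 2.00 TPM), *Hey1* (29.5 ± 2.09 TPM), *Jag2* (18.8 ± 3.71 TPM), *Notch1* (15.8 ± 0.939 TPM), *Heyl* (14.5 ± 0.713 TPM), *Dll1* (11.9 ± 0.578 TPM), and *Jag1* (5.99 ± 0.400 TPM). The ranges of *Notch3* and *Hey1*, of *Jag2* and *Notch1*, and of *Notch1* and *Heyl* overlapped between libraries. Within each library *Notch3* was above *Hey1* and *Notch1* above *Heyl*, whereas *Jag2* was not above *Notch1* in every library. In the DM1 group, *Hes6* (47.3 ± 4.75 TPM) and *Notch2* (40.4 ± 8.25 TPM) were highest, followed by *Hes1* (29.8 ± 5.73 TPM), *Notch3* (25.4 ± 4.26 TPM), and *Jag2* (21.8 ± 6.61 TPM), with overlapping ranges between all of these neighbors. *Notch1* (9.37 ± 1.68 TPM) and *Dll1* (6.66 ± 1.48 TPM) came next, each with a range apart from its neighbor above. *Hey1* (5.81 ± 0.904 TPM), which stood above *Jag2* in the normal group, came after them by its mean, beside *Jag1* (4.63 ± 0.755 TPM) and *Heyl* (4.51 ± 1.21 TPM), and the ranges of neighbors in this lowest group overlapped. The ranges of *Dll1* and *Hey1* overlapped too, and *Dll1* was not above *Hey1* in every library. By the deposited coverage, another value per length, the order differed. In the normal group, *Notch2* (125 ± 17.7) and *Notch3* (102 ± 16.6) were above *Hes1* (81.8 ± 5.64) by coverage in every library, with ranges apart, whereas *Hes1* was above both in TPM. In the DM1 group, *Notch2* (133 ± 6.01) was first by coverage, with a range that overlapped that of *Hes6* (120 ± 15.1), and *Notch3* (84.0 ± 3.04) was above *Hes1* (51.0 ± 7.36) in every library.

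The make-up of each role differed as well, here given as shares of the summed TPM without a test. *Notch1* took 17.4%, 18.8%, and 17.3% of the receptor TPM in the normal group and 12.6%, 12.4%, and 12.4% in the DM1 group. The share of *Notch2* was higher in every DM1 library, with means of 45.3% and 53.6%, and that of *Notch3* was lower, with means of 36.9% and 33.9%. Among the ligands, *Dll1* took 28.9%, 38.2%, and 31.4% in the normal group and 19.2%, 23.7%, and 18.1% in the DM1 group, while the share of *Jag2* was 50.8% and 65.4% on average. The groups did not overlap in either share, and those of *Jag1* overlapped.

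Among the effectors, the Hey genes took smaller shares in the DM1 group. *Hey1* took 18.8%, 18.0%, and 17.9% of the effector TPM in the normal group and 8.28%, 6.91%, and 5.08% in the DM1 group. The mean share of *Heyl* was 8.95% and 5.11%, and that of *Hes6* was 44.5% and 54.2%, in both cases with groups that did not overlap. The shares of *Hes1* overlapped. The summed effector level was 168, 165, and 153 TPM in the normal group and 82.0, 81.6, and 98.4 TPM in the DM1 group, while the summed levels of the receptors (88.8 ± 3.91 and 75.2 ± 14.1 TPM) and of the ligands (36.7 ± 3.50 and 33.1 ± 8.51 TPM) overlapped between the groups. By the deposited coverage, the shares whose groups lay apart had the same directions, but the shares themselves moved. That of *Notch1* was 10.4% in the normal and 7.12% in the DM1 group, and that of *Jag1* was 24.9% and 25.8%. *Dll1* (38.7%) rather than *Jag2* (36.3%) then had the largest mean share of the ligands in the normal group.

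**Figure D3:**
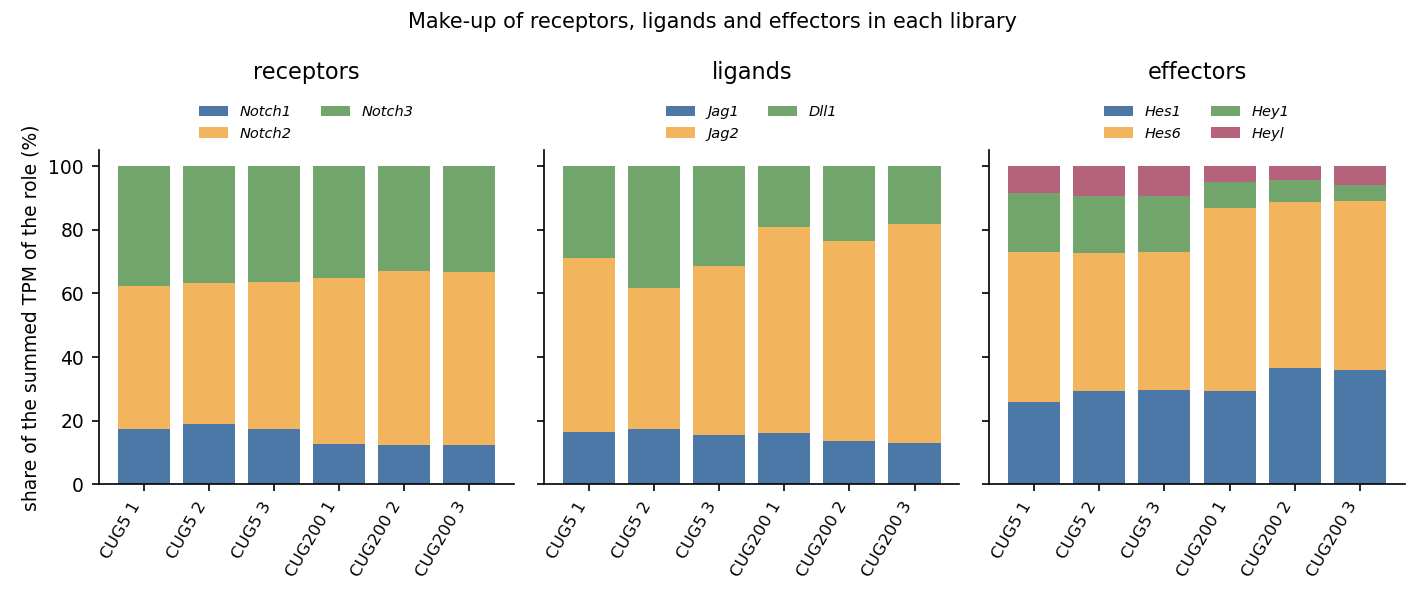
Share of each gene in the summed TPM of its role (%), as stacked bars for each of the 6 libraries, for receptors, ligands, and effectors. In the CUG200 libraries *Notch1*, *Dll1*, *Hey1*, and *Heyl* take smaller shares, and *Notch2*, *Jag2*, and *Hes6* take larger ones.

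Beyond the 10 genes, 61 further genes of the pathway were listed, of which 51 had enough counts to be tested. Among the 51 genes, 6 were lower in the DM1 group (11.8%, against 8.73% of all tested genes) and 1 was higher (1.96%, against 7.13%), with a median log2 fold change of -0.07. The share lower was close to that of all genes. The count depended on single libraries, as between 0 (without CUG5 replicate 3 or without CUG200 replicate 2) and 10 (without CUG200 replicate 3) genes were lower when a library was left out, with 1 without CUG5 replicate 1 and 2 without CUG5 replicate 2.

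The 6 lower genes belong to several steps. *Mib1* and *Neurl1a*, ubiquitin ligases that drive the endocytosis of ligands, had log2 fold changes of -0.68 (SE 0.188, edgeR adjusted p = 0.0479) and -0.40 (SE 0.0808, adjusted p = 0.0144). *Mib1* was called in only 7 of 17 alternatives, and with limma on log2(TPM + 1) its log2 fold change was -0.17 (adjusted p = 0.481), with groups that overlapped in TPM. *Psen2*, a catalytic subunit of the γ-secretase that cuts the receptor, was lower by -0.63 on the log2 scale (SE 0.163, adjusted p = 0.0323), and 9 other proteases did not pass. *Ctbp1* (-0.44, SE 0.0887, adjusted p = 0.0141) and *Tle1* (-0.45, SE 0.123, adjusted p = 0.0382) encode corepressors, and *Dtx4* (-0.37, SE 0.107, adjusted p = 0.0479) encodes a Deltex ubiquitin ligase. For each of these 6 genes, at least 1 left-out library took the adjusted p-value over the threshold (highest 0.0696 to 0.199).

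*Numbl*, which encodes an endocytic adaptor related to the Notch inhibitor Numb, was the only gene of this list that was higher. Its level was 32.9, 31.7, and 29.8 CPM in the normal group and 48.9, 55.6, and 67.2 CPM in the DM1 group. The groups did not overlap, with a log2 fold change of 0.86 (SE 0.120, edgeR adjusted p = 0.00369), and the adjusted p-value stayed between 0.00280 and 0.0242 when single libraries were left out. On the TPM scale the call was lost (highest adjusted p = 0.0724, with limma), and the highest normal library (12.5 TPM) lay just under the lowest DM1 library (13.2 TPM).

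The nuclear complex and several family members gave no call. None of the 9 genes of the nuclear complex passed, and *Rbpj*, named after its values were seen, had a log2 fold change of 0.26 (SE 0.186, edgeR adjusted p = 0.406), which turned to -0.22 on the log2(TPM + 0.1) scale. *Nrarp*, a Notch target that feeds back on the pathway and was likewise chosen after its values were seen, had only 91, 67, and 72 counts in the normal group and 36, 51, and 36 counts in the DM1 group. The groups did not overlap, but the log2 fold change of -0.88 missed the threshold (SE 0.286, edgeR adjusted p = 0.0715). On the other side, *Neurl1b*, a ubiquitin ligase related to *Neurl1a* and also chosen after its values were seen, had 81, 49, and 27 counts in the normal group and 99, 117, and 113 counts in the DM1 group. Its groups did not overlap in CPM either, and its log2 fold change of 1.12 missed the threshold (SE 0.348, edgeR adjusted p = 0.0619), with a call in 3 of 17 alternatives. In TPM the groups of *Neurl1b* overlapped, whereas those of *Nrarp* did not. Over all alternatives, the log2 fold change was as low as 0.33 for *Neurl1b* and as high as -0.33 for *Nrarp*. The receptor *Notch4* had between 10 and 61 counts, with overlapping groups and a log2 fold change of 1.08 (SE 0.524, edgeR adjusted p = 0.204). *Dll4* and *Hey2* were near 0, with at most 16 and 23 counts in a library, and *Hes5*, *Dlk1*, and *Dtx1* had 0 counts in all 6 libraries.

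**Figure D4:**
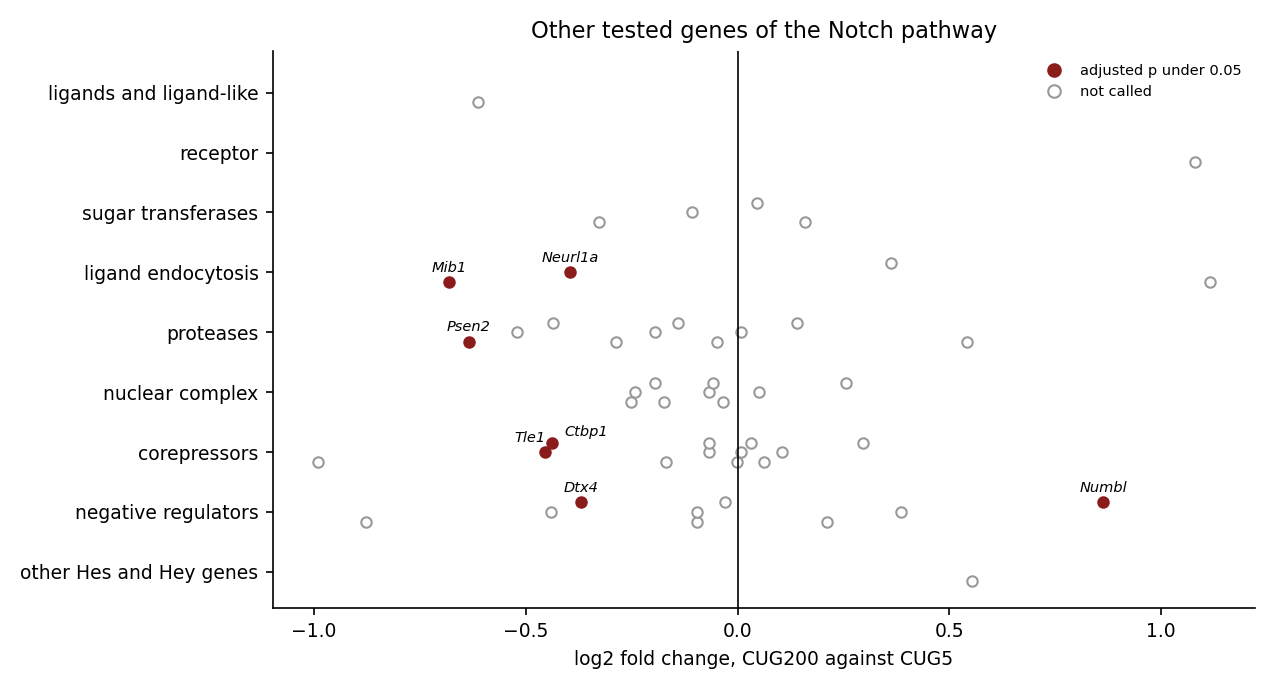
Log2 fold change, CUG200 against CUG5, of the 51 other tested genes of the pathway, by their step, with filled and named points for an edgeR adjusted p-value under 0.05. The points scatter on both sides of 0, with 6 genes called lower and *Numbl* called higher.

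Markers of cell states and of other cell types were measured in the same libraries. Of 10 genes of differentiated muscle, 8 were lower in the DM1 group and 0 were higher, with a summed level of 7682 to 9149 TPM in the normal group and 3881 to 5779 TPM in the DM1 group. Among them were *Myog* (log2 fold change -0.65, edgeR adjusted p = 0.00227) but not *Mymk* (-0.55, adjusted p = 0.304) or *Mymx* (0.23, adjusted p = 0.0732). Of 9 tested genes of undifferentiated myoblasts and reserve cells, 2 were lower and 2 higher, and their summed level overlapped (262 to 290 and 243 to 293 TPM), with *Chrdl2* at 0. Single left-out libraries ended the calls of *Mef2c* and *Tnnt3* among the muscle genes (edgeR adjusted p of up to 0.186 without CUG200 replicate 1 and up to 0.104 without CUG200 replicate 2) and of *Myod1*, *Sdc4*, and *Id2* among the others (*Sdc4* and *Id2* up to 0.136 and 0.117 without CUG5 replicate 3). *Cd34* of the same list was higher (log2 fold change 0.97, edgeR adjusted p = 0.00305) and was called in 17 of 17 alternatives. The 8 cycling cell genes gave no call (439 to 497 and 448 to 491 TPM).

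*Hey1*, *Heyl*, and *Notch3* are also known from blood vessels. Of the 7 endothelial markers, 6 failed the filter with at most 26 counts in a library, and *Tie1* and *Erg* had 0 counts in every library. The seventh, *Tek*, named after its values were seen, was lower in DM1 cells (log2 fold change -0.95, edgeR adjusted p = 0.0107, and 0.0526 without CUG200 replicate 2). The summed endothelial level was 3.29 to 4.23 TPM in the normal group and 1.18 to 2.15 TPM in the DM1 group, and nearly all of it was *Tek* (2.97 to 4.10 and 1.15 to 2.11 TPM). Of 3 tested mural cell markers, *Rgs5* was lower, *Cspg4* was higher, and *Kcnj8* of the untested ones was at 0 (summed level 59.4 to 67.5 and 50.4 to 72.5 TPM). *Rgs5* had only 82, 53, and 84 counts in the normal group and 22, 11, and 30 counts in the DM1 group. Most of the summed mural level was *Pdgfrb* (51.3 to 58.8 and 43.1 to 62.6 TPM), which gave no call. The calls of *Rgs5* and *Cspg4* were lost in some alternatives, with adjusted p-values of up to 0.104 and 0.125 in edgeR without single libraries, and *Cspg4* was at a log2 fold change as low as 0.038 over all alternatives. Of 5 tested fibroblast markers, 3 were higher (*Dcn*, *Lum*, and *Col1a1*) and 0 lower, with summed levels of 1500 to 1771 and 1749 to 2115 TPM, and the call of *Dcn* was lost without some libraries (edgeR adjusted p of up to 0.115). Of 4 macrophage markers, the 2 tested gave no call (4.08 to 6.17 and 4.13 to 6.82 TPM), and *Ptprc* and *Adgre1* were at 0. The part of these markers in the differences of the 10 genes was not tested.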

How the data were processed

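Reads of 6 mouse libraries were trimmed with Trim Galore, aligned to GRCm38 with HISAT2, and quantified with StringTie by the authors; their versions, the annotation, the read length, and the strand setting are not given in the sources used here. The authors deposited counts per gene without normalization, and per library the coverage (signal), FPKM, and TPM of every gene. The groups came from the sample labels. Gene identifiers were matched to GENCODE M21 (55240 of 55421), and identifiers repeated in a library table (9 to 14 per library) were summed. All 6 count columns were used.

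Counts were filtered with filterByExpr (minimum count 10), which left 19005 genes, scaled by TMM (factors 0.940 to 1.05), and tested with the robust quasi-likelihood test of edgeR without covariates, adjusting p-values after Benjamini-Hochberg over all tested genes (threshold 0.05). The study's cutoff of an absolute log2 fold change over 1 was a second rule. Each SE of edgeR is an approximation, the absolute log2 fold change divided by the square root of the quasi-likelihood F statistic. The alternatives were DESeq2, edgeR with the size factors of DESeq2 or with library totals, a filter at 1 count or at 10 counts per library, non-robust fitting, a block for the replicate number, counts divided by 4, sums over genes that share exons, limma-trend on the deposited TPM (log2, pseudocount 1 or 0.1, genes with over 0.5 TPM in at least 3 libraries), FPKM for the shares, and fits without each library. Coverage for shares and order was chosen after seeing the data.

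All 10 members were named, and of the other pathway genes up to 6 per direction with the smallest p-value among those called with separate groups, and up to 3 markers per list in list order. All other genes named, including those given as near or at 0, were chosen after their values were seen. The members and lists were chosen with earlier results of these data known. No 2 libraries of a group held the same counts, and each was used as 1 replicate. Tested on simulated data for this comparison, in which 200 genes were given a log2 fold change of 2, edgeR recovered 200 with 7 false calls among 18658 genes. Tests were run with edgeR 4.0.16, limma 3.58.1, and DESeq2 1.42.0 in R 4.3.3, and tables and figures were made with Python 3.11.15 (matplotlib 3.10.9, numpy 2.4.6, pandas 2.3.3).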

Additional observations from a re-analysis of the deposited data

How the results depend on the processing

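Of the 10 genes, the 6 called lower kept their direction in all 17 alternatives, and *Notch1*, *Dll1*, *Hey1*, and *Heyl* also stayed under the threshold. The TPM scale moved the median log2 fold change of all genes by -0.10 (TPM + 1) and -0.12 (TPM + 0.1). On it, *Notch2* turned to -0.0108 (TPM + 1) and -0.0114 (TPM + 0.1) and *Jag2* to 0.19 with both, and *Jag2* was also 0.0029 with at least 10 counts in every library and 0.0054 with counts divided by 4. DESeq2 called *Notch3* lower (-0.25, adjusted p = 0.0473). When single libraries were left out, the log2 fold change ranged from -0.32 to -0.22 for *Notch3*, from -0.39 to -0.19 for *Jag1*, from -0.13 to 0.067 for *Jag2*, from -0.78 to -0.54 for *Hes1*, and from -0.52 to -0.41 for *Hes6*. Members called lower numbered 7 with DESeq2, against 12.2% of the 16182 genes to which it gave an adjusted p-value. They numbered 8 without CUG200 replicate 3, where 2111 of all genes were lower, against 1660 with all libraries. Of the other pathway genes, 0 to 10 were lower and 1 to 3 higher without single libraries, and those higher were 4 with DESeq2, at least 10 counts, or counts divided by 4, 2 with the replicate block or summed exons, and 0 with limma on either TPM scale. Over all genes, limma called 998 (TPM + 1) and 938 (TPM + 0.1) lower and 480 and 454 higher; with a log2 fold change beyond 1, it called 81 lower with TPM + 1, and 66 and 151 higher. Without single libraries, 485 to 2111 genes were lower, 543 to 1678 higher, 91 to 192 lower beyond a log2 fold change of 1, and 181 to 271 higher beyond it. The cause of these differences was not tested. Deviations of same-numbered libraries of the 2 groups correlated weakly across genes (0.0675, 0.0222, and 0.0263). Those of differently numbered libraries correlated at -0.072 to 0.0451. CUG5 replicates 1 and 2 correlated best with the CUG200 library of the same number, and CUG5 replicate 3 with CUG200 replicate 2 (0.0451). Correlations this weak cannot decide whether the numbers pair the libraries. With the replicate number as a block, the log2 fold changes were -0.64 for *Notch1*, -0.75 for *Dll1*, -0.68 for *Hes1*, -0.47 for *Hes6*, -2.39 for *Hey1*, and -1.61 for *Heyl*, and the 6 calls stood.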
